A study of Mus musculus with 8 samples.

Results

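The transcription factor p53 is held at a low level in unstressed cells and, once stabilized by DNA damage or other stress, binds DNA as a tetramer and activates genes that arrest division, repair damage, curb growth signalling or start apoptosis. The genes described here are 10 such targets that restrain growth or answer stress: Sesn1 and Sesn2 (sestrins), 9630033F20Rik (the symbol in the deposited table for Tigar), Zmat3, Plk2, Btg2, Gadd45a, Phlda3, Aen and Psrc1. They were chosen by symbol from the 39017 genes of the table. In B cells that divide quickly in germinal centers, p53 responses are known to be damped, for example by the repressor Bcl6, so that cells can tolerate the DNA breaks of antibody gene diversification.

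RNA was measured in induced germinal center-like B cells (iGBs), splenic B cells of C57BL6/J mice grown on 40LB cells, a fibroblast line that displays CD40L and makes BAFF, with 1 ng/mL IL-4, and parted from the feeders by elutriation on day 4. The comparison was between 4 libraries from Prmt5 F/F Cγ1-cre mice, called Prmt5-null, and 4 libraries from Cγ1-cre mice, called control. Prmt5 is an arginine methyltransferase that places symmetric dimethyl marks on histones and splicing proteins. Both genotypes carried Cγ1-cre, which is expressed in B cells only once they are activated (in resting B cells the floxed gene is left intact). The libraries were independent biological samples, the age of the animals is not in the labels, and the labels name no other agent. No label gives a batch or date of culture.

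Totals were 36731721 to 50366174 reads per library, and values are normalized counts, that is, reads on exons divided by the size factor of the library. Prmt5 fell from 11774 ± 908 normalized counts in control to 1538 ± 436 in Prmt5-null libraries (SD, n = 4 each), a log2 fold change of -2.98 (limma, adjusted p = 6.1e-06), without reaching 0. Of the B cell markers, Cd79a was called lower (-0.74 on the log2 scale), at 8114 ± 831 in Prmt5-null and 13526 ± 923 in control libraries, while Cd79b had 30533 ± 3325 and 28360 ± 1626 and Ms4a1 43984 ± 7881 and 46741 ± 3126, neither past the test (the last 2 were named after their values were seen). Pax5, Blk, Ebf1 and Cd22, also named after their values were seen, had log2 fold changes of 0.20, 0.13, 0.09 and -0.24, none past the test. Cd3e was at 0 in all 8 libraries, and Lyz2 had a mean of 45.4 in Prmt5-null and 32.4 in control libraries. In these bulk samples fewer cells of a type and less RNA per cell cannot be told apart.

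Stretches of DNA before the transcription starts of 4 of the genes are shown because the p53 binding site is what p53 reads in its target genes, often near the promoter or in the first intron. They are from RefSeq (GRCm38.p6), printed 5′ to 3′ on the strand of the gene, with each match to the p53 half-site in capitals. The half-site is 10 bases long and reads the same on both strands. Phlda3, at chr1:135765835-135766084 on the plus strand, is the gene with the largest rise, and its 250 bases before the start held no match. Gadd45a at chr6:67037408-67037657 (minus strand), Sesn1 at chr10:41887189-41887438 (plus strand, the second of its starts) and Aen at chr7:78895927-78895956 (plus strand, 30 bases around the site) each held 1.
Phlda3: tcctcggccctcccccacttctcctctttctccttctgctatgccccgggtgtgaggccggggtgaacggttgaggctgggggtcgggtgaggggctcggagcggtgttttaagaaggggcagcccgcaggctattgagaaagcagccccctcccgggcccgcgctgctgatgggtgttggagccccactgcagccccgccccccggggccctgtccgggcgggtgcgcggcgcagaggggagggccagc
Gadd45a: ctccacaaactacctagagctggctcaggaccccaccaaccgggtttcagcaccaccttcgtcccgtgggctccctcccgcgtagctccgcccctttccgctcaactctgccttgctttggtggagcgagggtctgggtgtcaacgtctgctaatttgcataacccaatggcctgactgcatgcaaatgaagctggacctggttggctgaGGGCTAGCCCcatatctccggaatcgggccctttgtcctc
Sesn1: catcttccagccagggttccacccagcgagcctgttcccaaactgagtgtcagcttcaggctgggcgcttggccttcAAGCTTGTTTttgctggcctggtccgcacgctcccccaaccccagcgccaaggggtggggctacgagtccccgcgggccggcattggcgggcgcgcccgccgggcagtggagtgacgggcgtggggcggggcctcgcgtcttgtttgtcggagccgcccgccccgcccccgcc
Aen: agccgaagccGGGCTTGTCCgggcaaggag
Of the 10 genes, 9 had RefSeq promoter windows (12 windows of 300 bases, from 250 before to 50 after a start), all but Zmat3. The half-site was present in 4 of the 12 windows, of 3 genes, against 8.36% of all 32851 windows of that length, and the 2 Aen windows overlap and hold the same site. It began 40 bases before the start in Gadd45a, 173 before it in Sesn1, and 10 after the first and 121 before the second start in Aen. Paired half-sites with a spacer of 0 to 13 bases and up to 2 mismatches were found in the windows of Gadd45a and of the second Sesn1 start, against 4.09% of all windows. None of the windows of Phlda3, Psrc1, Sesn2 and Plk2 held a half-site, which says only that these letters are absent from these windows. The 3 genes with a match were among those not called changed in the comparison that follows.

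Between Prmt5-null and control iGBs, 5 of the 10 genes were called higher and none lower. A gene was called when limma's test over 16250 genes, on log2(normalized count + 1), gave it an adjusted p under 0.05 with 1.5-fold or more between the genotypes. Of all genes tested, 3.49% were called higher, 2.99% lower and 6.48% either way, and at any fold an adjusted p under 0.05 was reached by the same 5 of the 10 and by 13.8% of all genes. The called genes were Phlda3, Psrc1, Zmat3, Plk2 and Sesn2, and the uncalled ones Sesn1, Aen, Btg2, 9630033F20Rik and Gadd45a. At an unadjusted p below 0.05, 7 were higher and 0 lower in limma, edgeR and DESeq2 alike, against 14.6% and 14.7% of all genes in limma, and the latter tools also called 5 higher and 0 lower. The median log2 fold change of the 10 was 0.47, against 0.00 over all genes tested. For 6 of the 10 genes the genotypes did not overlap, 5 with every Prmt5-null library above every control library, as in 9.67% of all genes, and 1 below, as in 10.2%. A requirement of at least 2-fold left 3 called higher (Phlda3, Psrc1 and Zmat3), against 1.59% of all genes, since Plk2 lay at 2.00-fold but just under the threshold. Zmat3 lay under 2-fold too when CTRL-10370, PRMT5-10618 or PRMT5-10771 was left out, at 0.87, 0.97 and 0.98 on the log2 scale.

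**Figure D1:**
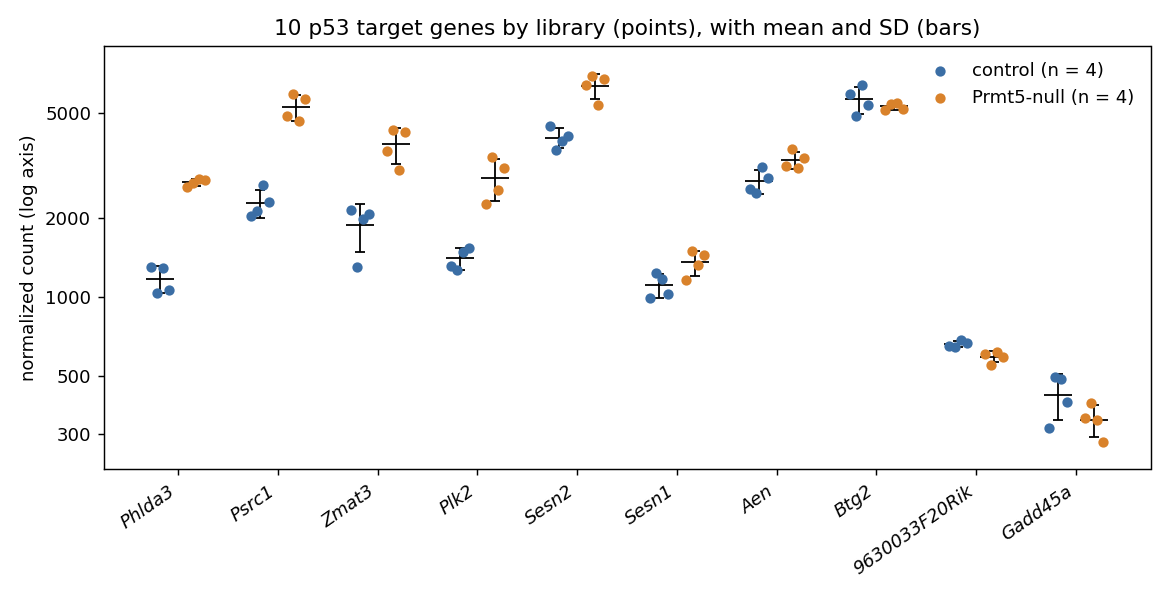
Normalized counts (log axis) of the 10 p53 target genes in each library, with control in blue and Prmt5-null in orange; horizontal bars are means and error bars SD over 4 libraries, and genes are ordered by log2 fold change. The genotypes are apart for Phlda3, Psrc1, Zmat3, Plk2 and Sesn2, and for 9630033F20Rik in the other direction.

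Phlda3, a small protein with a pleckstrin homology domain that competes with Akt for membrane lipids and so restrains Akt, had the largest rise of the 10 (chr1:135766119-135769136, plus strand). Its normalized counts were 2615, 2696, 2798 and 2784 in the Prmt5-null libraries and 1299, 1033, 1285 and 1062 in the control libraries. The Prmt5-null values sat within a narrow band, with a coefficient of variation of 3.13% against 12.1% in control, and the lowest was more than 2 times the highest control value. The log2 fold change was 1.23 (SE 0.09, limma adjusted p = 2.5e-05), or 2.34-fold, which ranked 204 of 16250 genes by size of rise.

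Sesn2 and Sesn1 are sestrins, stress-induced proteins that bind the GATOR2 complex and thereby hold back mTORC1, the growth kinase complex that answers amino acids; Sesn2 is also a leucine sensor. Sesn2 (chr4:132492032-132510501, minus strand) had 6378, 6893, 5374 and 6763 normalized counts in Prmt5-null and 4455, 3625, 3912 and 4096 in control libraries. No library of one genotype reached the range of the other, and the log2 fold change was 0.66 (SE 0.09, limma adjusted p = 0.00101), or 1.58-fold. Sesn1 (chr10:41809935-41908424, plus strand) had 1155, 1490, 1318 and 1435 in Prmt5-null and 989, 1232, 1172 and 1021 in control libraries. Here the lowest Prmt5-null library lay below 2 control libraries, and the difference of 0.29 on the log2 scale (SE 0.11) did not pass (limma adjusted p = 0.0938, from 0.0161 to 0.217 over the alternatives).

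Within each library Sesn2 was compared with the remaining sestrin, Sesn3. The log2 ratio of Sesn2 to Sesn3 was 1.91 ± 0.11 in Prmt5-null and 1.20 ± 0.20 in control libraries (SD, n = 4 each), a difference of 0.71 (exact permutation p = 0.0286, the smallest 4 against 4 allow, 0.0429 after adjustment over the 12 ratios computed, some of which share a gene). Sesn2 alone was already apart between the genotypes, so this ratio is no separate evidence of its rise. The ratio of Sesn1 to Sesn3 also differed, by 0.34, with no overlap (exact p = 0.0286, adjusted 0.0429), although Sesn1 itself was not called. Sesn2 against Sesn1 differed by 0.37 with overlapping libraries (exact p = 0.0571, adjusted 0.0762), so that an unequal rise of the 2 sestrins was not shown. Sesn3 had 1684 ± 135 and 1748 ± 121 normalized counts.

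In the wider pathway of the sestrins, 24 genes were tested, of GATOR1, GATOR2, AMPK, the Rag GTPases, mTORC1, their regulators and other nutrient sensors. Not all of them lie downstream of the sestrins. Limma called 0 of the 24, against 6.48% of all genes. At an unadjusted p below 0.05, 4 were higher and 0 lower, against 14.6% and 14.7% of all genes. Of the 24, 18 lay above 0. edgeR called 0 and DESeq2 1 of them, Gatsl3. Their median log2 fold change was 0.07. Genes of the list named here were chosen after their values were seen. Below the 1.5-fold requirement, Depdc5 and Nprl2, both subunits of GATOR1, which inactivates the Rag GTPases, had log2 fold changes of 0.48 (SE 0.07, limma adjusted p = 0.0014) and 0.52 (SE 0.10, adjusted p = 0.0065). Their partner Nprl3 had 0.16 (limma adjusted p = 0.408). B630005N14Rik, an older symbol of the S-adenosylmethionine sensor gene Bmt2, had 0.48 (limma adjusted p = 0.0362), and Gatsl3, an older symbol of the arginine sensor gene Castor1, 0.69 with an adjusted p of 0.0511. Mtor and Rptor had -0.21 and -0.08, neither past the test.

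Plk2, a polo-like kinase linked to centriole duplication, had 2257, 3401, 2539 and 3088 normalized counts in Prmt5-null and 1304, 1266, 1481 and 1537 in control libraries (chr13:110395046-110400844, plus strand). The Prmt5-null libraries spread widely, with a coefficient of variation of 18.4% against 9.46% in control, and all lay above the controls. Its log2 fold change was 1.00 (SE 0.13, limma adjusted p = 0.00042). The other polo-like kinases, which act in mitosis, stress responses and centriole copying, had differences of -0.15 (Plk1), -0.18 (Plk3) and -0.12 (Plk4), none past the test. The log2 ratio of Plk2 to Plk1 rose by 1.15, to Plk3 by 1.17 and to Plk4 by 1.12, each without overlap of the genotypes (exact permutation p = 0.0286 for each, adjusted 0.0429). These ratios share Plk2, which was already apart between the genotypes, so they are no separate evidence of its rise.

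Psrc1, a microtubule-binding protein of the mitotic spindle, rose from 2026, 2121, 2654 and 2294 normalized counts in control to 4851, 5884, 4680 and 5655 in Prmt5-null libraries (chr3:108383839-108388231, plus strand). The lowest Prmt5-null library was far above the highest control library. The log2 fold change was 1.21 (SE 0.10, limma adjusted p = 4.9e-05).

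Zmat3, a zinc finger protein that binds RNA and affects splicing and RNA stability, had 3595, 4299, 3036 and 4246 normalized counts in Prmt5-null and 2129, 1302, 1978 and 2055 in control libraries (chr3:32334792-32366014, minus strand). The control library CTRL-10370 stood lowest and the other control libraries lay close together, all below the Prmt5-null range. The log2 fold change was 1.04 (SE 0.16, limma adjusted p = 0.0014). Against its relative Zmat2, which had 0.03 on the same scale, the log2 ratio rose by 1.00 (exact permutation p = 0.0286, adjusted 0.0429). Since Zmat3 alone was already apart between the genotypes, this ratio is no separate evidence of its rise. No ratio was computed to the relatives Zmat5 and Zmat1, which had 0.29 and -0.62, neither past the test.

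Btg2 and Gadd45a, of arrest and repair, were not called. Btg2, an antiproliferative adaptor of the mRNA deadenylase, had 5133, 5419, 5476 and 5196 normalized counts in Prmt5-null and 5910, 4880, 6376 and 5347 in control libraries (chr1:134075170-134079120, minus strand). All Prmt5-null values fell inside the control range, and the log2 fold change was -0.08 (SE 0.09, limma adjusted p = 0.592). Gadd45a, which binds PCNA and stress kinases after DNA damage, had 344, 393, 340 and 279 in Prmt5-null and 317, 495, 486 and 397 in control libraries (chr6:67035096-67037457, minus strand). Its log2 fold change was -0.31 (SE 0.16, limma adjusted p = 0.225), with overlapping libraries. The annotation places the exons of E230016M11Rik on the opposite strand of Gadd45a, with a mean of 59.6 normalized counts. The log2 ratios of Gadd45a to Gadd45b and to Gadd45g differed by 0.02 and -0.14 between genotypes (exact permutation p = 0.943 and 0.486).

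9630033F20Rik encodes Tigar, a phosphatase that lowers fructose-2,6-bisphosphate and so turns glucose away from glycolysis. It had 606, 551, 616 and 590 normalized counts in Prmt5-null and 648, 643, 684 and 667 in control libraries (chr6:127085116-127109557, minus strand). The highest Prmt5-null library was under the lowest control library (exact permutation p = 0.0286, the smallest possible), but the log2 difference of -0.16 (SE 0.09) did not pass across all genes (limma adjusted p = 0.244). The enzymes Pfkfb1 to Pfkfb4, which make and break the same sugar phosphate, ranged from -0.22 to 0.17 on the log2 scale and none passed.

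Aen, an exonuclease that degrades DNA during apoptosis, had 3152, 3645, 3079 and 3376 normalized counts in Prmt5-null and 2568, 2472, 3116 and 2840 in control libraries (chr7:78895854-78911209, plus strand). The control library CTRL-10596 reached into the Prmt5-null range, and the log2 fold change was 0.27 (SE 0.09, limma adjusted p = 0.0683, from 0.0161 to 0.163 over the alternatives). Against its relative Isg20l2 the log2 ratio rose by 0.43 without overlap (exact permutation p = 0.0286, adjusted 0.0429). Isg20l2 itself had -0.16, with every Prmt5-null library below every control library, so that part of the rise in the ratio came from it. The other listed relatives of Aen, Rexo4 and Isg20, had 0.15 and -0.48, and no ratio to them was computed.

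**Figure D2:**
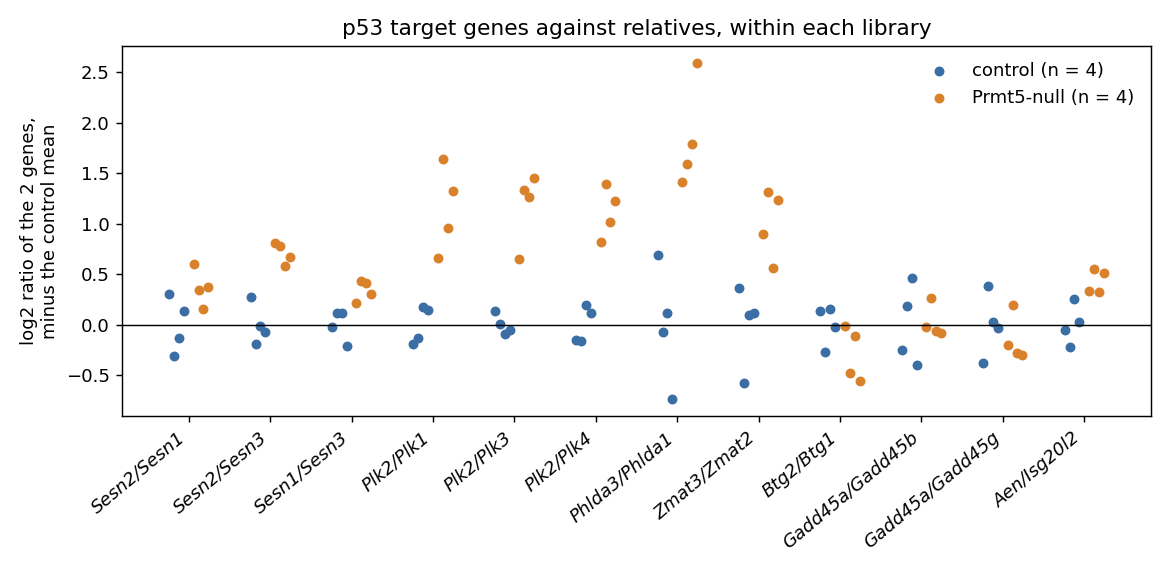
Log2 ratio of a p53 target gene to a family relative in each library, shifted so that the control mean is 0; blue points are the 4 control and orange points the 4 Prmt5-null libraries. Of 12 ratios, the genotypes are apart for 8, and overlap for Sesn2 to Sesn1, Btg2 to Btg1 and both Gadd45a ratios.

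Aen was also the only one of the 10 genes with an event in the deposited rMATS tables, which hold 1918 events (913 skipped exons, 350 mutually exclusive exons, 190 and 128 alternative 5′ and 3′ splice sites and 337 retained introns). The skipped exons lie in 913 genes, while 16250 genes were tested for expression, so that 1 event among 10 genes does not set these genes apart. The Aen event was the skipping of a 601-base exon at chr7:78902230-78902830 (GRCm38, plus strand), exon 2 of 4. The exon holds 64 bases before the start codon and 537 of the 1008 coding bases (53.3%), and its length is 1 base more than a multiple of 3. Its first 60 coding bases, with the start codon in capitals, and its last 60 bases, with the last 3 in capitals, show what a skipped transcript lacks; they are from the GENCODE transcripts of GRCm38.
Aen coding start: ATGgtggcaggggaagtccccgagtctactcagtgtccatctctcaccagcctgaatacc
Aen exon end: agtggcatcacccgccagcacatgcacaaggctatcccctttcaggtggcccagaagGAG
The authors' inclusion levels from junction and target reads were 0.704, 0.736, 0.760 and 0.718 in control and 0.798, 0.846, 0.785 and 0.842 in Prmt5-null. From junction reads alone they were 0.614, 0.661, 0.647 and 0.635 against 0.720, 0.784, 0.712 and 0.776. The exon was included more in Prmt5-null by either measure, by 0.088 and 0.109, with no overlap. These levels rest on few skipping reads, 25 to 37 per library in Prmt5-null and 35 to 50 in control. The lists name no library, and the first list was taken as control because the study gives its differences in inclusion as WT against KO. On that reading the event ran against the preference for excluding exons that the study reports in Prmt5-deficient cells. The authors picked events for differences in inclusion, so that no test is given.

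**Figure D3:**
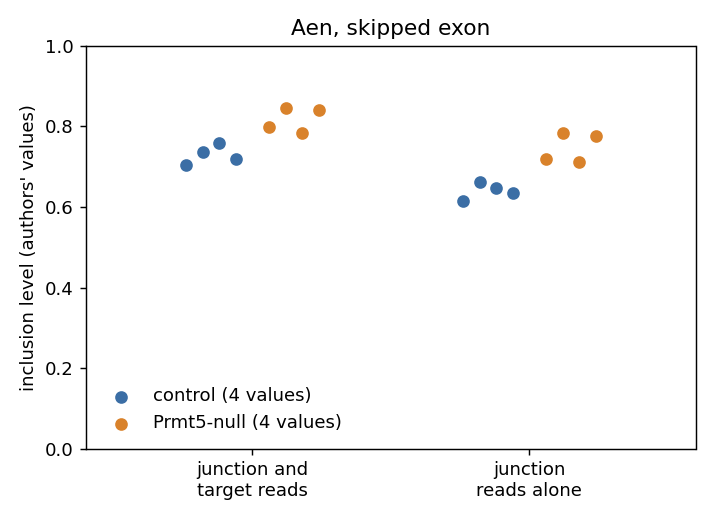
The authors' inclusion levels (0 to 1) of the skipped Aen exon, 4 values per genotype, from junction and target reads (left) and junction reads alone (right). The Prmt5-null values start at 0.785 and 0.712, above the highest control values of 0.760 and 0.661.

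Per kilobase of exonic length, Btg2 was the most abundant of the 10 genes in control libraries at 2052 ± 238 normalized counts per kb (SD, n = 4), followed by Sesn2 at 1157 ± 100, Phlda3 at 750 ± 90.9 and Psrc1 at 676 ± 82.2. Aen had 474 ± 50.01, Plk2 311 ± 29.4, Sesn1 277 ± 29.4, Gadd45a 240 ± 47.6, 9630033F20Rik 181 ± 5.18 and Zmat3 163 ± 33.3. Neighbours in this order overlapped from Plk2 down to Zmat3, and for Phlda3 and Psrc1. In Prmt5-null libraries the levels per kb of Phlda3 and Psrc1 were 1747 ± 54.7 and 1566 ± 176, near those of Sesn2 (1828 ± 198) and Btg2 (1934 ± 60.9). The called genes included the sparsest of the 10, Zmat3, and 3 of the 4 most abundant.

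Of 28 other p53 targets listed, 27 were tested, 11 were called higher and 0 lower (13 and 0 by edgeR and by DESeq2), against 3.49% and 2.99% of all genes. At an unadjusted p below 0.05 in limma 19 were higher and 1 lower, against 14.6% and 14.7% of all genes. The median log2 fold change was 0.55, and 24 lay above 0. The list was chosen with earlier results of these data known. The study of these libraries already names Cdkn1a, Perp, Bbc3, Tnfrsf10b, Bax and Ei24 as raised, so these counts are no separate evidence. Cell cycle inhibitor Cdkn1a had 1.37, and the membrane protein gene Perp 2.38, from 79.7 ± 18.05 to 411 ± 26.8 normalized counts (SD, n = 4). Death receptor genes Eda2r and Tnfrsf10b had 1.35 and 0.92. The apoptosis genes Bbc3, Bax, Lrdd (an older symbol of Pidd1) and Ei24 had 0.92, 0.68, 0.90 and 0.59. Mdm2, the ubiquitin ligase that degrades p53, had 0.59, the cyclin gene Ccng1 0.59 and the ephrin receptor gene Epha2 0.94. These 11 were called by limma, with adjusted p from 2.5e-05 (Perp) to 0.00354 (Lrdd). Mdm2, Ccng1 and Ei24 lay just past a 1.5-fold change (1.501, 1.51 and 1.505-fold), and leaving out 1 library lowered their log2 fold changes to as little as 0.53, 0.56 and 0.56. Mdm2 then lost its call without PRMT5-10618, PRMT5-10771, CTRL-10650, CTRL-10370 or CTRL-10597, and the other two without PRMT5-10618 or CTRL-10370, with limma adjusted p of at most 0.00796 throughout.

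Of 24 listed family relatives of the 10 genes, 21 were tested and 0 were called by limma, edgeR or DESeq2, against 6.48% of all genes in limma. At an unadjusted p below 0.05, 1 was higher and 5 lower, close to the 29.3% of all genes at that level in either direction, so that these counts do not set the relatives apart from other genes. They ranged from -0.62 to 0.29 on the log2 scale with a median of -0.13. One, Isg20, had an adjusted p below 0.05 in limma (-0.48, adjusted p = 0.0086) and was named after its value was seen.

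**Figure D4:**
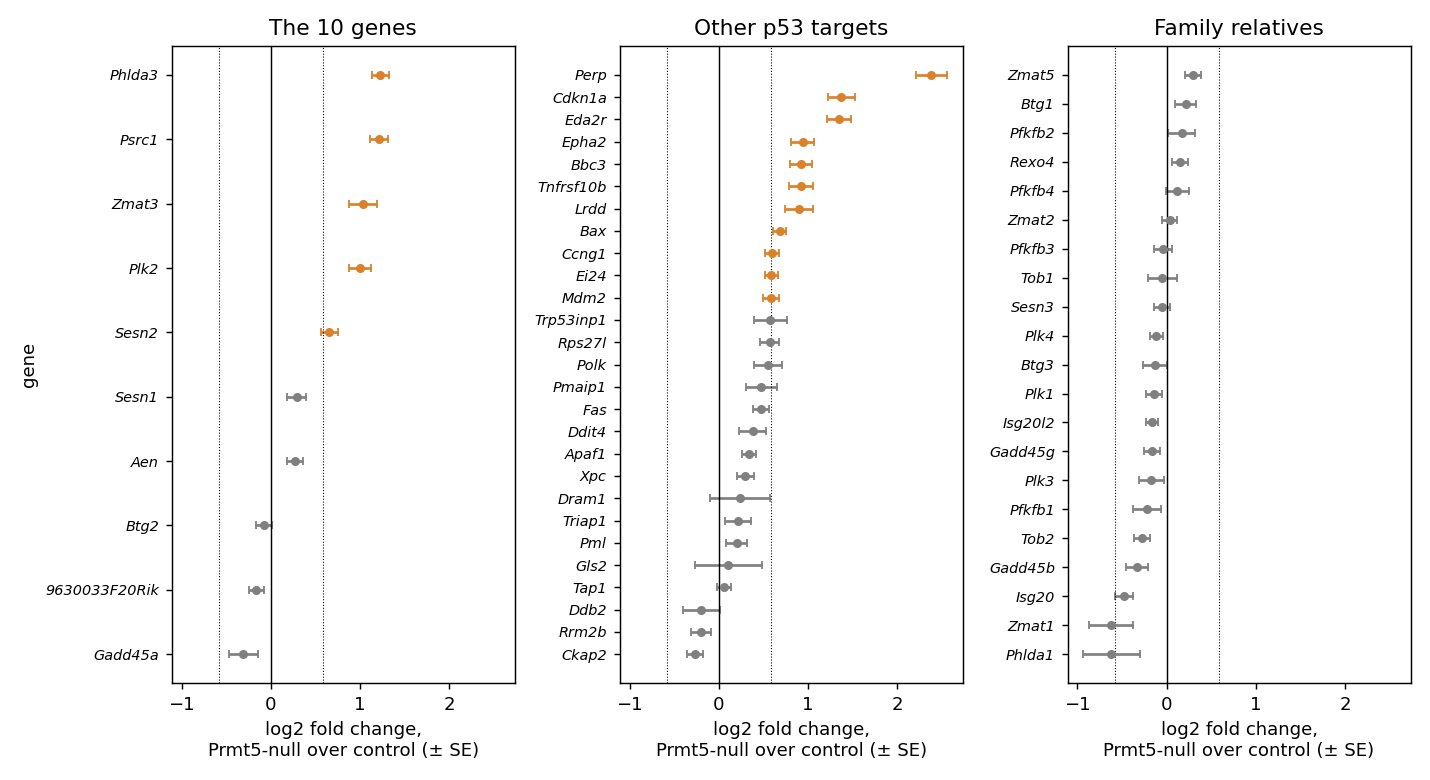
Log2 fold change (Prmt5-null over control, bars ± SE from limma, n = 4 each) of the 10 genes, of 27 other p53 targets and of 21 family relatives; orange marks called genes and dotted lines a 1.5-fold change. Called genes number 5, 11 and 0 in the 3 panels.

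Genes abundant in fibroblasts, the cell type of the feeder line, moved with genotype too. Of 17 such markers 15 were tested, all 15 lay above 0 and 3 were called higher, Col3a1 (1.02), Sparc (0.83) and Col1a2 (0.72), while Col1a1 (0.60) and Fn1 (0.42) did not pass. Their normalized counts summed to 13931, 8072, 11315 and 9887 in Prmt5-null and 9296, 5398, 6539 and 7796 in control libraries, so that the genotypes overlapped. The Prmt5-null library PRMT5-10618 had the lowest such sum of its genotype and the highest value of its genotype for 7 of the 10 genes, Plk2, Psrc1, Zmat3 and Sesn2 among them. The control libraries ran the other way. CTRL-10370, with the lowest control sum, had the lowest control value for 7 of the 10 genes, 4 of the called ones among them. CTRL-10650, with the highest control sum, had the highest control value for 3 of the called genes. Since most Prmt5-null sums exceeded every control sum, a fit with both the markers and genotype cannot separate the 2. With the log2 sum of these markers as a covariate, an alternative added after the data were seen, limma called the same 5 genes. Their log2 fold changes were then 1.16 (Phlda3), 1.37 (Psrc1), 0.92 (Zmat3), 1.20 (Plk2) and 0.61 (Sesn2), with limma adjusted p from 0.00173 to 0.0462. Sesn1 had 0.55 (limma adjusted p = 0.0161), or 1.47-fold, in that fit, and Gadd45a -0.02. Myeloid markers summed to 171 to 298 in Prmt5-null and 104 to 215 in control libraries, most of it from Emr1 (164 ± 31.6 and 101 ± 22.9), which was called higher. T cell markers summed to 325 to 475 and 687 to 811, nearly all of it from Lck (384 ± 70.04 and 730.1 ± 50.6), which was called lower, while Cd3e was at 0. Plasma cell markers summed to 31226 to 36339 and 32398 to 44341. Of these Prdm1 and Xbp1, transcription factors of plasma cell differentiation named after their values were seen, had log2 fold changes of -0.48 and -0.45 (limma adjusted p = 0.0428 and 0.0305), under the 1.5-fold requirement. The other plasma cell markers, Irf4, Sdc1 and Tnfrsf17, lay above 0, at 0.19, 0.16 and 0.40, none past the test. The part of feeder RNA and of these other cell types in the results was not tested.

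**Figure D5:**
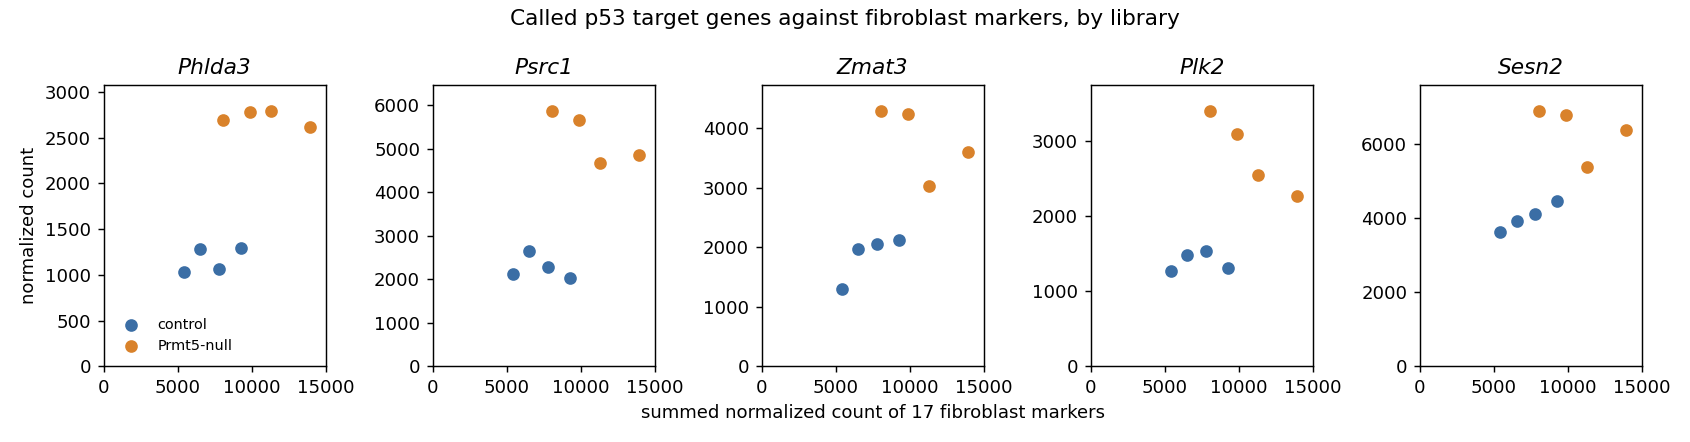
Normalized counts of the 5 called genes (vertical axes, from 0) against the summed normalized counts of 17 fibroblast markers (horizontal axes), 1 point per library, control in blue and Prmt5-null in orange. The Prmt5-null library with the lowest marker sum, 8072, lies to the left of the control library at 9296 and is above every control library on the vertical axes. The control library with the lowest marker sum, 5398, is the lowest control library for 4 of the 5 genes.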

How the data were processed

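RNA-seq of 8 iGB libraries (4 Prmt5-null, 4 control, groups from the labels) was used. The authors trimmed reads with Trimmomatic 0.32, aligned them to mm10 (GRCm38) with STAR 2.3.0e, counted unique alignments over Ensembl exons with featureCounts 1.4.4, and deposited each gene's count as a signal divided by DESeq2 1.14.1 size factors (normalized counts). The strand setting of the counting is not given in the sources used here, so overlapping antisense genes are uncertain. The rMATS inclusion levels and reads are other deposited values of the authors, who kept for a gene its event of lowest p in each class. Their p-value, FDR and difference columns were not used.

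All values (100%) were whole multiples, within 0.001, of 1 read, and the recovered reads served edgeR 4.0.16 and DESeq2 1.42.0 as alternatives. Of 39017 genes, 16250 reached a mean of 10 and entered limma 3.58.1 (R 4.3.3, lmFit, eBayes with trend, two-sided, Benjamini-Hochberg). No label gives a batch, so none was a term, and a possible split into 2 experiments of 2 libraries per genotype, a layout the study states only for most of its experiments, was fitted as a block in all 18 placements. Scripts were tested on simulated data. Exact permutation tests (SciPy 1.17.1, two-sided) of 4 against 4 cannot go below 0.0286. Other alternatives changed the pseudocount (1), filter, normalization, trend, thresholds and libraries. Gene positions and lengths are from GENCODE M21.

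The 10 genes and the lists of other targets, relatives, pathway genes and markers were chosen with earlier results of these data known. Named are all 10, Prmt5, every called gene of the other target, relative and pathway lists, the defining markers Cd79a, Col1a1, Col1a2, Col3a1, Fn1, Cd3e and Lyz2, each splicing event of the 10 and the 5 genes nearest to their mean standardized profile. Other markers and pathway genes were named after their values were seen. One defining B cell marker is not reported here.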

Additional observations from a re-analysis of the deposited data

How the results depend on the processing

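All 200 alternative values of the log2 fold changes of the 10 genes kept their direction and their call, which needs both 1.5-fold and an adjusted p below 0.05. By adjusted p alone, Sesn1 went below 0.05 with the fibroblast covariate (0.0161) and in a placement of the experiment block (0.0355), and Aen by DESeq2 (0.0465), in a placement of that block (0.0161) and without PRMT5-10770 (0.0466) or CTRL-10596 (0.0441). The count of called genes among the 10 stayed at 5 under each alternative but that of at least 2-fold, which gave 3. Leaving out 1 library at a time gave 5 of the 10 each time, 9 to 14 other p53 targets, 0 to 0 relatives, 795 to 1173 of all genes, 6 to 7 of the 10 without overlap, and a difference in Aen inclusion of 0.0788 to 0.0992. The 2-fold requirement left 3 other p53 targets and 396 of all genes, since it admits fewer, an adjusted p below 0.01 left 637, and the fibroblast covariate, added after the data were seen, 611 (333 higher and 278 lower). Without a trend, limma called 1 relative, Zmat1, lower. Of the sestrin pathway genes, 0 called in the main comparison, 1 was called with a pseudocount of 5, with TMM factors, by DESeq2 and at most 1 in the 18 placements of the block, in each case Gatsl3. Leaving out 1 library gave 0 to 1 of them, with 1 (Gatsl3, B630005N14Rik or Nprl2) without PRMT5-10617, PRMT5-10770, CTRL-10370 or CTRL-10596. The cause was not tested.

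No paired analysis was possible because no label ties a library of one genotype to a library of the other. With 4 libraries per genotype a change under 1.5-fold, as in Sesn1 and Aen, cannot pass the requirement whatever its p. No outlying library was found by Dixon's test in 22 groups of 4 values.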

Other observations

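Over the 8 libraries, the genes whose standardized log2 levels lay nearest to the mean standardized profile of the 10 genes, among 13290 other genes with a mean above 50, were Xpc, Stk11, Abr, Mtmr3 and Smpd2. Their root mean square differences from that profile, in SD units, were 0.158, 0.163, 0.171, 0.189 and 0.204, against a median of 1.34 over all candidates. Xpc, a DNA damage sensor of nucleotide excision repair, had 982 ± 65.9 normalized counts in Prmt5-null and 799 ± 71.3 in control libraries (SD, n = 4 each), a log2 fold change of 0.30 (limma adjusted p = 0.0554). Stk11, the kinase that activates AMPK, had 4957 ± 241 and 4239 ± 364, a log2 fold change of 0.23 (limma adjusted p = 0.0752). None of these 5 genes was called. Among the 10 genes themselves, Aen lay nearest to their mean profile at 0.224 and 9630033F20Rik farthest at 1.74, a description over 8 libraries that share the genotype difference.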
